A study of Mus musculus with 16 samples.

Results

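The enzymes that make and use alpha-ketoglutarate and succinate were followed across 16 RNA-seq libraries of macrophages grown from mouse bone marrow. The 10 genes were chosen by name among 54532 gene identifiers of the count tables: Idh1, Idh2, Idh3a, Glud1, Ogdh, Suclg2, Sdha, Sdhb, Sdhc and Sdhd. All 10 were found, with 158 to 7319 counts per library, and all 10 passed the filter on low counts in every comparison. In all groups marrow cells were differentiated for 7 days with 20 ng/mL of the macrophage growth factor M-CSF, and the culture that followed lasted 24 h. In the group TRAP1 KO TCM (n = 4), cells with a knockout of TRAP1 were kept in medium of which 70% had been conditioned by the mouse melanoma line YUMM1.7 (tumor-conditioned medium, TCM). Its wild type in the same medium was WT TCM (n = 3). The group JMJD3 cKO TCM (n = 3) held cells with a conditional knockout of JMJD3, and its own wild type was JMJD3 WT TCM (n = 3), both in the same medium. WT naive (n = 3) was wild type without TCM, so WT TCM against WT naive gives the effect of the medium. The labels give no strain, age or driver of the conditional deletion. They also do not say whether libraries of a group came from separate animals or cultures. The p-values set differences between groups against the variation among these libraries only, and that variation may be technical.

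Alpha-ketoglutarate is an intermediate of the tricarboxylic acid cycle and the co-substrate of a large family of dioxygenases, among them histone and DNA demethylases, and succinate is the product of those reactions and can inhibit them. Isocitrate dehydrogenases and glutamate dehydrogenase make alpha-ketoglutarate, the oxoglutarate dehydrogenase complex and succinyl-CoA ligase turn it into succinate, and succinate dehydrogenase (complex II of the respiratory chain) oxidizes succinate to fumarate. In macrophages the balance of both acids is known to influence inflammatory and alternative activation. TRAP1, an HSP90-type chaperone inside mitochondria, is known to bind succinate dehydrogenase. JMJD3, the product of Kdm6b, is itself an alpha-ketoglutarate-dependent histone demethylase.

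Library totals were 15361604 to 22426820 counts. Levels are given in CPM, read counts put on one scale by TMM factors over all 16 libraries, as mean ± SD. Trap1 had 3 counts in all over the 4 TRAP1 KO TCM libraries and 3622 over the 3 WT TCM libraries. Kdm6b averaged 25.6 ± 1.02 CPM in JMJD3 cKO TCM and 25.1 ± 1.69 CPM in JMJD3 WT TCM, so the summed count of Kdm6b did not check the conditional knockout. The files give no counts per exon, and the labels do not name the deleted part of Kdm6b. Summed levels of 9 macrophage markers were 14400 to 29000 CPM in every library. Summed levels of 6 fibroblast markers were 4.71 to 6.95 CPM in TRAP1 KO TCM and 0.165 to 0.403 CPM in WT TCM, where Col3a1, Dcn and Pdgfra were at 0. The 3 T cell markers reached at most 0.549 CPM in any library. In bulk libraries, fewer cells of a type and less RNA per cell cannot be told apart.

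Promoter sequences are shown for Glud1, Suclg2, Idh2, Idh1 and Sdhd, since among the genes with a matched window the largest differences in the genotype and medium comparisons fell on these. They were taken from RefSeq on GRCm38.p6 (mm10) and are read 5′ to 3′ on the strand of each gene. Windows of 250 bases before the start were matched for 8 of the 10 genes, all but Idh3a and Sdhc. Capitals mark any of the motifs named below on either strand.
Glud1, chr14:34310494-34310726, plus strand: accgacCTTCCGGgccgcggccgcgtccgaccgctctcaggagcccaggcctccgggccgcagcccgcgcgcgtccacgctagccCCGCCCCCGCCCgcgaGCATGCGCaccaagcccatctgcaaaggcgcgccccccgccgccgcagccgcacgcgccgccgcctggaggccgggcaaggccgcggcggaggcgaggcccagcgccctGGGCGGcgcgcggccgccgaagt
Suclg2, chr6:95718847-95718966, minus strand: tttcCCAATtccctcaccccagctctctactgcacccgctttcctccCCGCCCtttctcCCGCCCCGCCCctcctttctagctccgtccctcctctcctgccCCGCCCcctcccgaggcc
Idh2, chr7:80115393-80115512, minus strand: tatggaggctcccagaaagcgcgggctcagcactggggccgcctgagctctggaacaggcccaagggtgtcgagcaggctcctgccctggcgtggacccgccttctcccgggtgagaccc
Idh1, chr1:65186501-65186682, minus strand: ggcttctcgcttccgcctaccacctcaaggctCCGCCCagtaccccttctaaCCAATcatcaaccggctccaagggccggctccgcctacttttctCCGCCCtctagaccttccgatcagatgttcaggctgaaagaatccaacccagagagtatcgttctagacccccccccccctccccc
Sdhd, chr9:50603850-50603909, minus strand: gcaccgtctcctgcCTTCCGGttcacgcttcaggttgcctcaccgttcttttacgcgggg
The Sp box GGGCGG lay in the windows of 6 of the 8 genes and in 32.7% of all 32851 promoter windows of that length, and CCAAT lay in 6 of 8 and in 33.8% of all. The NRF1 letters GCATGCGC were found for Glud1, Ogdh and Sdhb and in 2.26% of all windows, and the ETS letters CCGGAAG for Glud1 and Sdhd and in 6.91% of all. The CRE letters TGACGTCA were found for Ogdh and in 1.55% of all windows, and the ERR letters AAGGTCA for none of the 8 and in 4.08% of all. No motif was found in all 8 windows, and the matches of Idh2 lie elsewhere in its window than in the stretch shown. The stretches of Glud1, Idh1 and Sdhd lie between the gene and a neighbour that is read the other way, namely Shld2 (234 bases between the starts), Pikfyve (183 bases) and Timm8b (98 bases).

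The comparison of TRAP1 KO TCM with WT TCM addressed what loss of TRAP1 does in macrophages exposed to tumor medium. Glud1, the mitochondrial glutamate dehydrogenase that releases alpha-ketoglutarate from glutamate, was higher in the knockout by 23.6% and was the largest change among the 10 genes. The cytosolic and mitochondrial NADP-dependent isocitrate dehydrogenases, Idh1 and Idh2, differed by -8.63% and -8.38%. Sdhd and Sdhb, which encode a membrane anchor and the iron-sulfur subunit of succinate dehydrogenase, were higher by 6.07% and 4.93%. The other 5 genes did not pass the test. In all, 3 of the 10 genes were called higher and 2 lower at an adjusted p under 0.05, where 42.2% of 14078 tested genes were called, 21.2% higher and 21.0% lower. The share of the 10 genes that was called was thus near that of all genes, and their median log2 fold change was 0.06, against 0.01 for all genes.

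Among the enzymes that make alpha-ketoglutarate, Glud1 (chr14:34310727-34345265, plus strand, as are all positions on GRCm38) had 337.3, 347.6, 337.1 and 339.1 CPM in the 4 TRAP1 KO TCM libraries and 277.6, 275.5 and 277.7 CPM in the 3 WT TCM libraries. Every knockout library was above every wild-type library. The log2 fold change was 0.31 ± 0.02 (SE; 95% interval 0.26 to 0.35; adjusted p = 5.34e-23 by edgeR's quasi-likelihood test with Benjamini-Hochberg adjustment, used for all adjusted p-values below). Glud1 ranked 446th of 14078 genes by p. Idh1 (chr1:65158616-65186500, minus strand) had 120.6, 117.9, 121.0 and 120.3 CPM in TRAP1 KO TCM and 133.1, 130.0 and 133.0 CPM in WT TCM. All 4 knockout libraries were below the wild type, with a log2 fold change of -0.13 ± 0.03 (SE; edgeR adjusted p = 9.04e-05). Idh2 (chr7:80094846-80115392, minus strand) had 59.3, 66.4, 67.0 and 66.0 CPM in TRAP1 KO TCM and 72.9, 69.7 and 70.4 CPM in WT TCM. The groups did not overlap, and replicate 1 of the knockout was the lowest. Its log2 fold change was -0.13 ± 0.04 (SE; edgeR adjusted p = 0.00565), but the adjusted p was 0.0727 without TRAP1 KO TCM replicate 1 and 0.0567 without WT TCM replicate 1. Idh3a (chr9:54586334-54604661, plus strand), the catalytic subunit of the NAD-dependent isocitrate dehydrogenase, averaged 41.8 ± 1.29 CPM in TRAP1 KO TCM and 40.1 ± 0.597 CPM in WT TCM, and the groups overlapped (log2 fold change 0.07, 95% interval -0.03 to 0.16, edgeR adjusted p = 0.271). Its partner subunits Idh3b and Idh3g were lower in the knockout (log2 fold changes -0.27 ± 0.03 and -0.13 ± 0.04, SE; edgeR adjusted p = 2.48e-12 and 0.00892).

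Ogdh (chr11:6291633-6356642, plus strand), the first enzyme of the complex that converts alpha-ketoglutarate to succinyl-CoA, averaged 155.0 ± 2.29 CPM in TRAP1 KO TCM and 150.9 ± 2.40 CPM in WT TCM, with overlapping groups (95% interval of the log2 fold change -0.01 to 0.10). Suclg2 (chr6:95473009-95718800, minus strand), the GTP-forming beta subunit of succinyl-CoA ligase, averaged 25.4 ± 0.362 CPM in TRAP1 KO TCM and 23.9 ± 0.881 CPM in WT TCM. The 2 groups did not overlap, yet the difference did not pass the test (log2 fold change 0.10, 95% interval -0.03 to 0.23, edgeR adjusted p = 0.231). Suclg1, the alpha subunit that Suclg2 shares with the ATP-forming enzyme, was lower in the knockout (log2 fold change -0.18 ± 0.04, SE; edgeR adjusted p = 0.000314), while Sucla2, the ATP-forming beta subunit, did not pass (log2 fold change 0.03 ± 0.05, SE).

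Among the subunits of succinate dehydrogenase, Sdhd (chr9:50596357-50603812, minus strand) had 118.5, 116.3, 116.9 and 115.6 CPM in TRAP1 KO TCM and 109.2, 111.1 and 112.1 CPM in WT TCM. The groups did not overlap, and the log2 fold change was 0.09 ± 0.03 (SE; edgeR adjusted p = 0.0184). The call was lost without WT TCM replicate 1 (adjusted p = 0.0988) and when all 16 libraries were fitted together (0.053). Sdhb (chr4:140961203-140979193, plus strand) had 122.7, 126.2, 127.1 and 125.8 CPM in TRAP1 KO TCM and 121.0, 118.1 and 121.7 CPM in WT TCM. The lowest knockout library lay just above the highest wild-type library. The log2 fold change of Sdhb was 0.07 ± 0.03 (SE; edgeR adjusted p = 0.046), and it missed the threshold in 12 of 15 alternative settings, with an adjusted p of up to 0.204. Sdha (chr13:74322254-74350280, minus strand), the flavoprotein that binds succinate, averaged 223.7 ± 5.18 CPM in TRAP1 KO TCM and 226.0 ± 3.40 CPM in WT TCM, and Sdhc (chr1:171127165-171150603, minus strand), the other membrane anchor, averaged 121.3 ± 1.58 CPM in TRAP1 KO TCM and 120.4 ± 1.65 CPM in WT TCM. Both overlapped between the groups, with 95% intervals of the log2 fold change of -0.05 to 0.04 for Sdha and -0.04 to 0.08 for Sdhc.

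**Figure D1:**
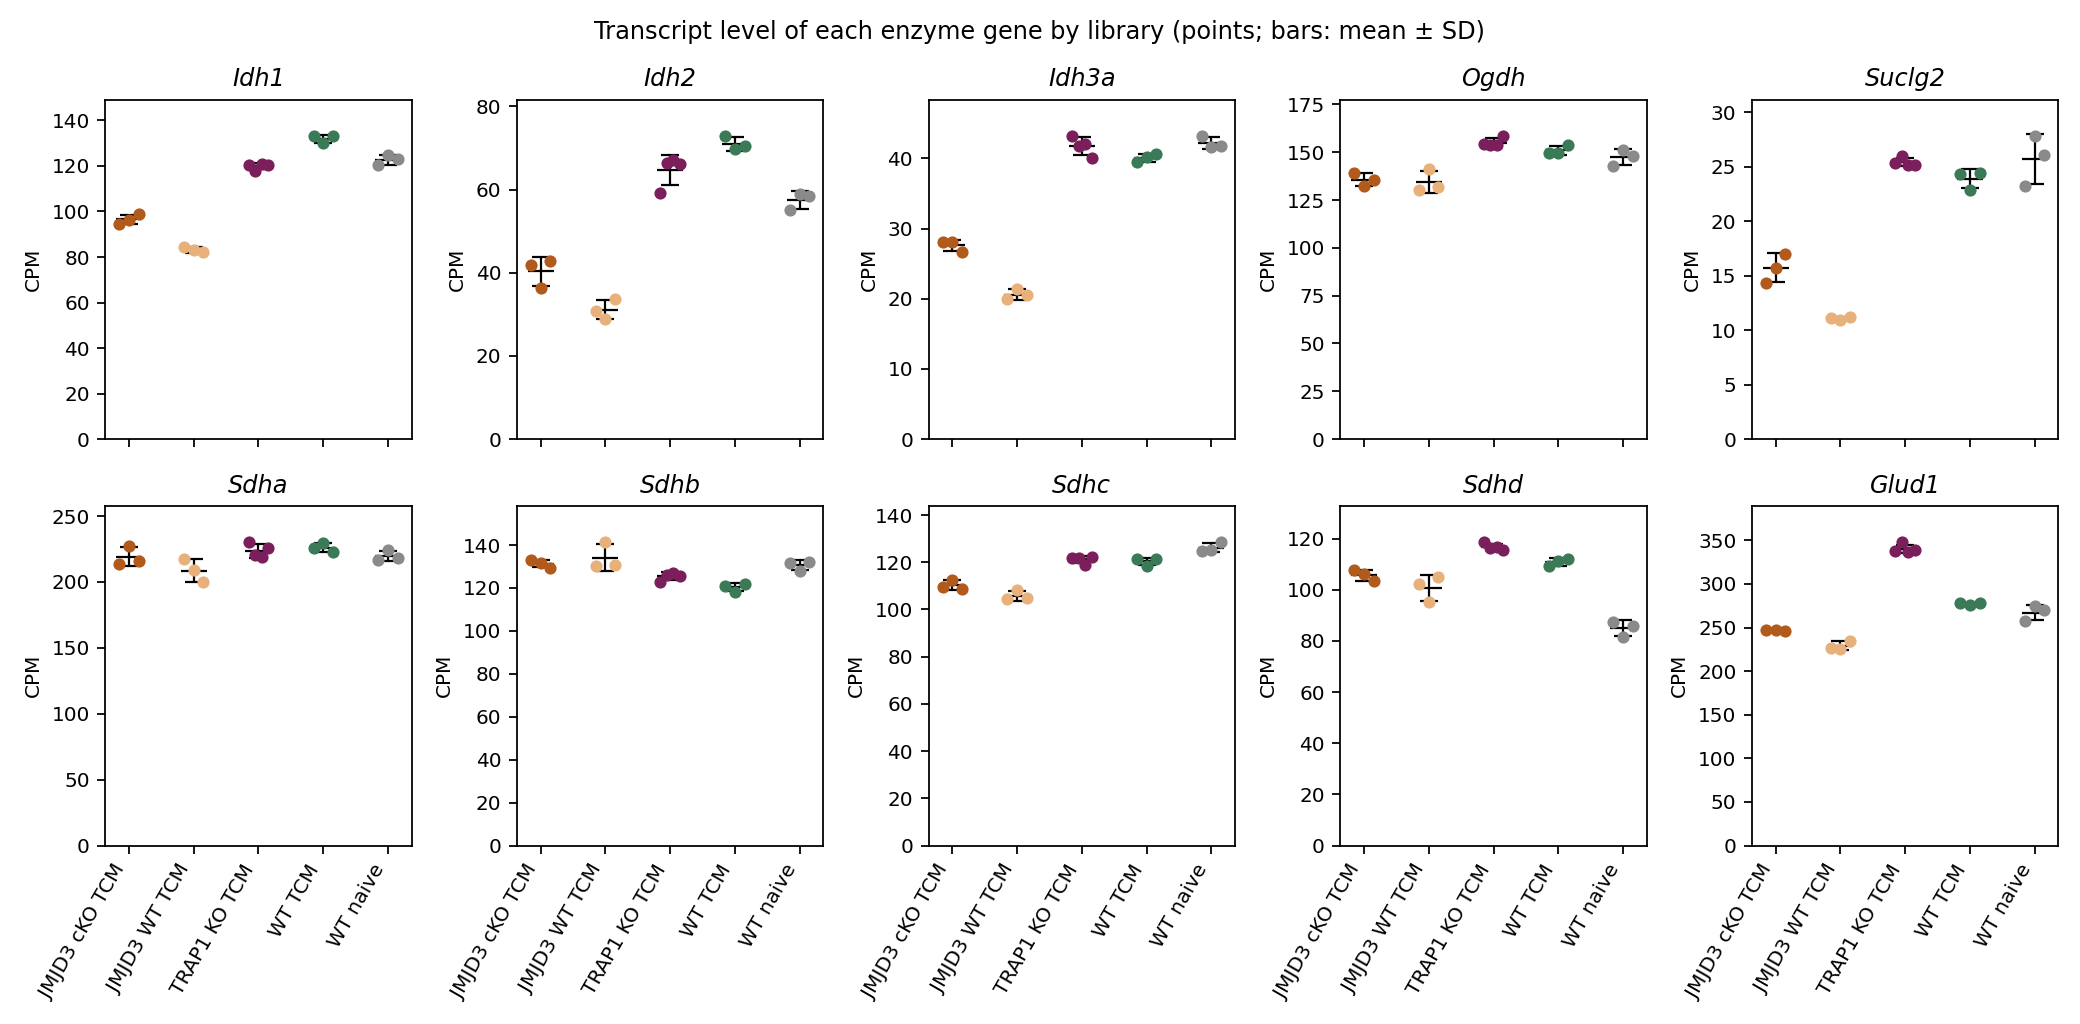
Level of each of the 10 genes in every library, in CPM on TMM-scaled totals, by group; points are libraries, bars the group mean ± SD. Glud1 sits at 337.1 to 347.6 CPM in TRAP1 KO TCM and at 275.5 to 277.7 CPM in WT TCM, and Suclg2 at 14.4 to 17.0 CPM in JMJD3 cKO TCM and at 10.9 to 11.2 CPM in JMJD3 WT TCM.

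Around these 10 genes, the lists of the pathway moved in both directions in TRAP1 KO TCM. Over all tested genes 21.2% were called higher and 21.0% lower, and counts near these shares do not set a list apart. Of 10 other tricarboxylic acid cycle genes 3 were called higher and 4 lower, with the median log2 fold change at 0.04. Dlst, the succinyltransferase of the oxoglutarate dehydrogenase complex, was higher (log2 fold change 0.17 ± 0.03, SE) and Cs, citrate synthase, was lower (-0.21 ± 0.03, SE). Of 9 tested genes of glutamine and glutamate handling, 1 was higher and 6 were lower. This list also held genes that do not themselves make alpha-ketoglutarate, such as Glul and Phgdh. Glul, glutamine synthetase, averaged 234.2 ± 3.47 CPM in TRAP1 KO TCM and 175.4 ± 3.21 CPM in WT TCM (log2 fold change 0.43 ± 0.02, SE), while Slc1a5, a glutamine transporter, averaged 17.0 ± 1.0 CPM in TRAP1 KO TCM and 31.9 ± 0.796 CPM in WT TCM (-0.90 ± 0.07, SE). Phgdh, the first enzyme of serine synthesis, fell to 2.28 ± 0.361 CPM in TRAP1 KO TCM, against 7.51 ± 0.79 CPM in WT TCM. Of 13 tested genes of pyruvate entry 1 was higher and 7 were lower, among them Mpc1, a subunit of the mitochondrial pyruvate carrier, at 7.50 ± 0.811 CPM in TRAP1 KO TCM and 11.7 ± 2.18 CPM in WT TCM. Of 6 cytosolic partners 1 was higher and 4 were lower, including Got1, the cytosolic aspartate aminotransferase (log2 fold change -0.43 ± 0.04, SE). Of 7 tested mitochondrial carriers 2 were higher and 4 lower, including the citrate carrier Slc25a1 (log2 fold change -0.30 ± 0.04, SE). The largest change in these pathway lists was that of Slc13a3, a plasma membrane carrier of succinate and other dicarboxylates, which averaged 0.649 ± 0.275 CPM in TRAP1 KO TCM and 22.7 ± 0.392 CPM in WT TCM. It stood in the list of other succinate routes, where 1 of 6 tested genes was higher (Acod1, which makes itaconate, an inhibitor of succinate dehydrogenase; 89.1 ± 5.60 CPM in TRAP1 KO TCM and 56.8 ± 0.997 CPM in WT TCM) and 2 were lower. Of 4 complex II assembly factors 2 were higher, Sdhaf2 and Sdhaf4 (log2 fold changes 0.14 ± 0.05 and 0.24 ± 0.09, SE). Of 6 genes of 2-hydroxyglutarate and lipoate supply 1 was lower, Adhfe1, a hydroxyacid-oxoacid transhydrogenase that links these acids (0.422 ± 0.0675 CPM in TRAP1 KO TCM and 3.51 ± 0.474 CPM in WT TCM). Of 31 tested alpha-ketoglutarate-dependent dioxygenases 13 were higher and 5 lower, among them Plod3, a collagen lysyl hydroxylase (log2 fold change 0.43 ± 0.03, SE), and Kdm6b itself (17.1 ± 0.366 CPM in TRAP1 KO TCM and 11.1 ± 2.15 CPM in WT TCM). Of 12 tested mitochondrially encoded subunits 9 were higher and none lower, with the median log2 fold change at 0.23, and mitochondrially encoded genes took 1.43% of counts in TRAP1 KO TCM and 1.26% in WT TCM. The part of this difference, and of the fibroblast markers above, in the results on the 10 genes was not tested.

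The comparison of JMJD3 cKO TCM with JMJD3 WT TCM asked the same of the conditional knockout of this demethylase. All 5 genes that passed the test were higher in the knockout, and 4 of them were the isocitrate dehydrogenases and Suclg2. Suclg2 was higher by 42.6%, Idh3a by 34.4%, Idh2 by 30.0%, Idh1 by 16.4% and Glud1 by 8.10%. Ogdh and the 4 subunits of succinate dehydrogenase did not pass. Of 13476 tested genes 35.1% were called, 17.3% higher and 17.8% lower, while of the 10 genes 5 were higher and 0 lower. Their median log2 fold change was 0.09, against 0.01 for all genes.

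Suclg2 had 14.4, 15.7 and 17.0 CPM in JMJD3 cKO TCM and 11.1, 10.9 and 11.2 CPM in JMJD3 WT TCM. All 3 knockout libraries were above the wild type, at a log2 fold change of 0.51 ± 0.10 (SE; 95% interval 0.32 to 0.71; edgeR adjusted p = 4.34e-05). Idh3a had 28.1, 28.1 and 26.6 CPM in JMJD3 cKO TCM and 19.9, 21.4 and 20.5 CPM in JMJD3 WT TCM (log2 fold change 0.43 ± 0.07, SE; edgeR adjusted p = 5.22e-06). Here too the groups did not overlap. Idh2 had 41.9, 36.4 and 42.8 CPM in JMJD3 cKO TCM and 30.9, 29.0 and 33.6 CPM in JMJD3 WT TCM (log2 fold change 0.38 ± 0.07, SE; edgeR adjusted p = 9.23e-06). The lowest knockout library, replicate 2, was still above the highest wild-type library. Idh1 had 94.5, 96.3 and 98.8 CPM in JMJD3 cKO TCM and 84.6, 82.9 and 82.0 CPM in JMJD3 WT TCM (log2 fold change 0.22 ± 0.04, SE; edgeR adjusted p = 2.46e-05). Glud1 had 247.7, 247.0 and 245.9 CPM in JMJD3 cKO TCM and 226.8, 225.5 and 234.8 CPM in JMJD3 WT TCM (log2 fold change 0.11 ± 0.03, SE; edgeR adjusted p = 0.00287). For both genes each knockout library exceeded each wild-type library. These 5 calls held in all 13 alternative settings.

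Ogdh averaged 135.7 ± 3.41 CPM in JMJD3 cKO TCM and 134.4 ± 5.84 CPM in JMJD3 WT TCM, and Sdhb averaged 131.3 ± 1.80 CPM in JMJD3 cKO TCM and 134.0 ± 6.18 CPM in JMJD3 WT TCM. Both overlapped between the groups, with 95% intervals of the log2 fold change of -0.06 to 0.09 for Ogdh and -0.10 to 0.05 for Sdhb. Sdha (log2 fold change 0.08 ± 0.03, SE), Sdhc (0.07 ± 0.04, SE) and Sdhd (0.07 ± 0.04, SE) had edgeR adjusted p-values of 0.0804, 0.192 and 0.172. These outcomes depended on the settings, and Sdha gained a call in 4 of 13 alternatives. With library totals and no TMM factor 9 of the 10 genes were called higher, Sdhb was at a log2 fold change of 0.06, and the split over all genes was 3932 higher and 1571 lower (71.5% of the called genes higher, against 49.2% with TMM). Totals were 19511053 to 22426820 counts in JMJD3 cKO TCM and 15815651 to 17544225 in JMJD3 WT TCM, with no overlap, and the part of depth in the result was not tested. Summed levels of 7 neutrophil markers were 38.8 to 40.6 CPM in JMJD3 cKO TCM and 21.1 to 25.0 CPM in JMJD3 WT TCM, with none of the 7 at 0 in either group. Those of 4 dendritic cell markers were 3.28 to 4.44 CPM in JMJD3 cKO TCM and 7.41 to 9.76 CPM in JMJD3 WT TCM, and those of 9 macrophage markers 14400 to 14800 CPM in JMJD3 cKO TCM and 17600 to 18000 CPM in JMJD3 WT TCM. The macrophage markers moved in both directions, with 4 of the 9 called higher and 5 lower in JMJD3 cKO TCM. Over all tested genes 17.3% were higher and 17.8% lower. The part of these lists was not tested.

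**Figure D2:**
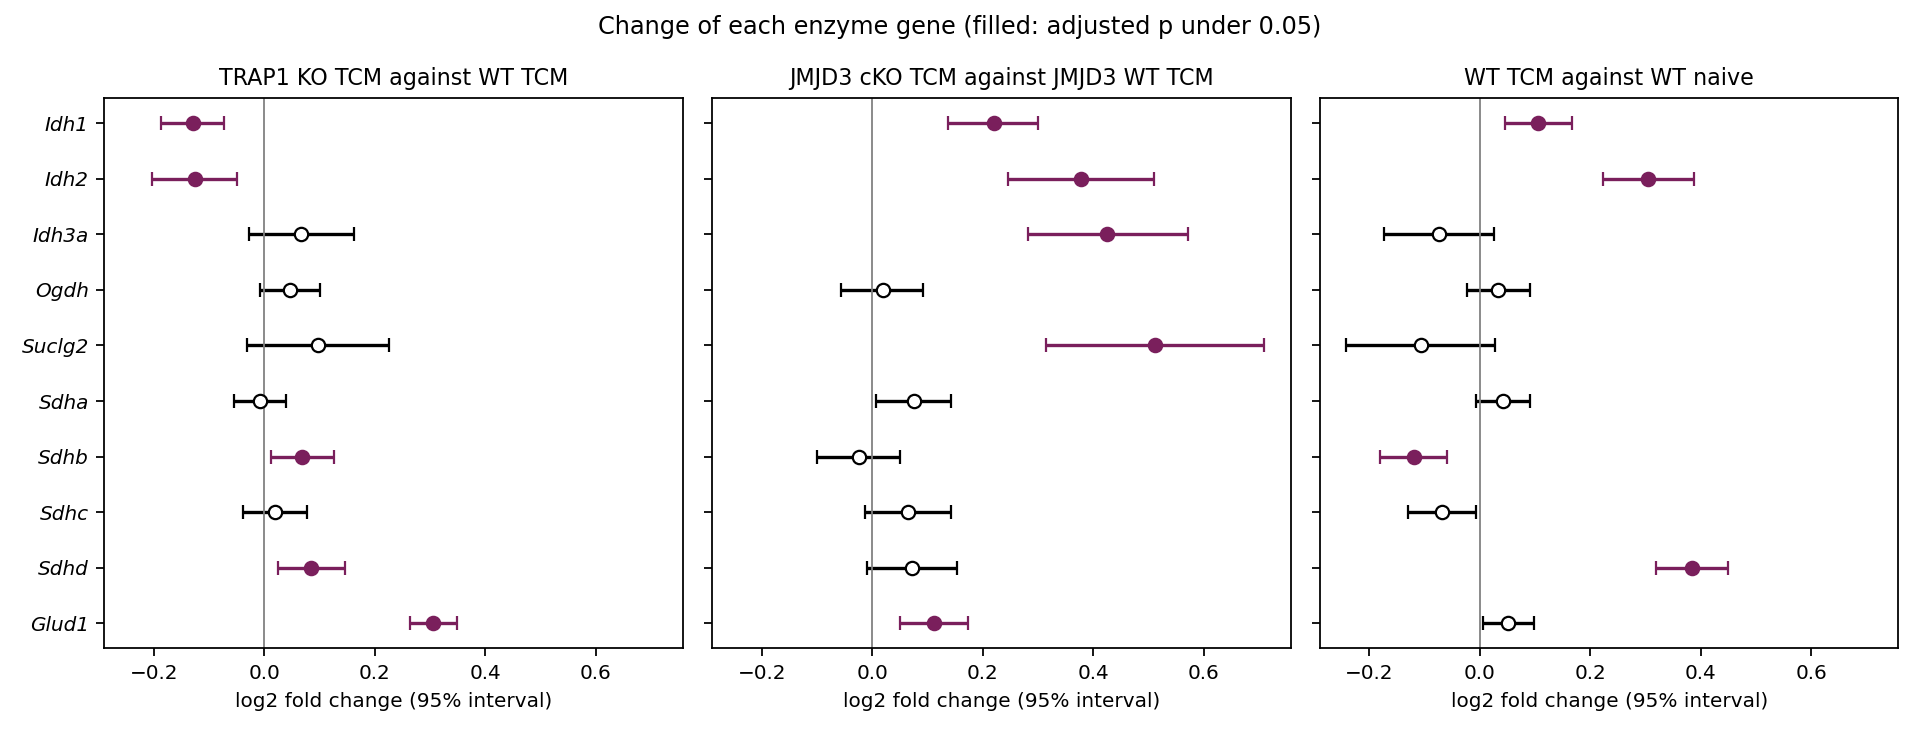
Log2 fold change of each of the 10 genes in the 3 comparisons, with 95% intervals; filled points passed an adjusted p under 0.05. Glud1 stands at 0.31 in TRAP1 KO TCM against WT TCM, Suclg2 at 0.51 in JMJD3 cKO TCM against JMJD3 WT TCM, and Sdhd at 0.38 in WT TCM against WT naive.

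The lists of the pathway are again read against all tested genes, of which 17.3% were called higher and 17.8% lower in JMJD3 cKO TCM. Of the 10 other tricarboxylic acid cycle genes 7 were higher in JMJD3 cKO TCM and none lower, with the median log2 fold change at 0.13. Among them were the partner subunits Idh3b (log2 fold change 0.18 ± 0.04, SE) and Sucla2 (0.25 ± 0.06, SE), and fumarase, Fh1 (0.27 ± 0.06, SE). Idh3g (log2 fold change 0.10 ± 0.05, SE) and Suclg1 (0.14 ± 0.06, SE) did not pass, at edgeR adjusted p = 0.138 and 0.0523. Of the 9 glutamine and glutamate genes 5 were higher and none lower. They included Slc1a5 (log2 fold change 0.50 ± 0.08, SE), Psat1, an aminotransferase of serine synthesis that releases alpha-ketoglutarate (16.6 ± 1.41 CPM in JMJD3 cKO TCM and 10.2 ± 0.364 CPM in JMJD3 WT TCM), and Oat, ornithine aminotransferase (log2 fold change 0.31 ± 0.05, SE). Of 13 genes of pyruvate entry 3 were higher and none lower, including Pdpr, a regulatory subunit of pyruvate dehydrogenase phosphatase (log2 fold change 0.40 ± 0.09, SE). Of 6 cytosolic partners 3 were higher and 1 lower, Got1 (log2 fold change -0.22 ± 0.05, SE). None of the 4 assembly factors was called. Of 5 tested genes of other succinate routes 1 was higher and 3 were lower. Acod1 fell to 75.0 ± 1.58 CPM in JMJD3 cKO TCM, against 244.6 ± 10.0 CPM in JMJD3 WT TCM (log2 fold change -1.70 ± 0.04, SE; edgeR adjusted p = 6.68e-34). Of 6 genes of 2-hydroxyglutarate and lipoate supply 3 were higher, including D2hgdh, the dehydrogenase that returns the D form of 2-hydroxyglutarate to alpha-ketoglutarate (log2 fold change 0.26 ± 0.10, SE). Of 7 mitochondrial carriers 2 were lower and none higher, among them Slc25a22, a glutamate carrier (log2 fold change -0.58 ± 0.04, SE). Of 31 dioxygenases 3 were higher and 17 lower, including the histone demethylase Kdm7a (log2 fold change -0.39 ± 0.04, SE) and Plod3 (-0.41 ± 0.03, SE). Of 12 mitochondrially encoded subunits 3 were higher and 1 lower, with mt-Nd2 of complex I at a log2 fold change of 0.24 ± 0.03 and mt-Nd3 of the same complex at -1.33 ± 0.38 (SE), the last on summed counts of 29 in JMJD3 cKO TCM and 57 in JMJD3 WT TCM. With library totals and no TMM factor, 5 dioxygenases were called higher and 11 lower, 7 mitochondrially encoded subunits higher and 1 lower, and all 10 other cycle genes higher. The carriers then stood at 2 higher and 2 lower, with a median log2 fold change of 0.01, against -0.07 with TMM.

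The comparison of WT TCM with WT naive gave the effect of the tumor medium on wild-type cells. Sdhd was higher in WT TCM by 30.5%, Idh2 by 23.5% and Idh1 by 7.59%, and Sdhb differed by -7.99%. In all 3 of the 10 genes were called higher and 1 lower, where 42.2% of 14078 genes were called, 21.6% higher and 20.6% lower. The median log2 fold change of the 10 genes was 0.04, against -0.01 for all genes. Of the 4 subunits of succinate dehydrogenase, 1 was thus called higher, 1 lower, and 2 did not pass.

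Sdhd had 109.2, 111.1 and 112.1 CPM in WT TCM and 87.6, 81.4 and 85.6 CPM in WT naive. All 3 libraries with medium were above those without, at a log2 fold change of 0.38 ± 0.03 (SE; 95% interval 0.32 to 0.45; edgeR adjusted p = 6.42e-18). Sdhb had 121.0, 118.1 and 121.7 CPM in WT TCM and 131.8, 127.9 and 132.3 CPM in WT naive. All 3 libraries with medium were below those without (log2 fold change -0.12 ± 0.03, SE; edgeR adjusted p = 0.000668). Sdha averaged 226.0 ± 3.40 CPM in WT TCM and 219.6 ± 4.05 CPM in WT naive, with overlap (95% interval of the log2 fold change -0.01 to 0.09). Sdhc averaged 120.4 ± 1.65 CPM in WT TCM and 126.2 ± 1.86 CPM in WT naive, which did not overlap but missed the threshold (log2 fold change -0.07 ± 0.03, SE; edgeR adjusted p = 0.0609). A call for Sdhc was gained in 2 of 14 alternative settings. Idh2 had 72.9, 69.7 and 70.4 CPM in WT TCM and 55.1, 59.0 and 58.4 CPM in WT naive (log2 fold change 0.31 ± 0.04, SE; edgeR adjusted p = 1.26e-09). Idh1 had 133.1, 130.0 and 133.0 CPM in WT TCM and 120.2, 124.6 and 123.1 CPM in WT naive (log2 fold change 0.11 ± 0.03, SE; edgeR adjusted p = 0.00268). Both genes were higher in every library with medium than in any without. Glud1 averaged 276.9 ± 1.26 CPM in WT TCM and 267.1 ± 9.05 CPM in WT naive and missed the threshold (log2 fold change 0.05 ± 0.02, SE; edgeR adjusted p = 0.0615). It gained a call in 3 of 14 alternative settings. Idh3a, Ogdh and Suclg2 did not pass, with 95% intervals of the log2 fold change of -0.17 to 0.03, -0.02 to 0.09 and -0.24 to 0.03. Summed levels of 7 neutrophil markers were 4.08 to 5.46 CPM in WT TCM, where Mpo was at 0, and 50 to 54 CPM in WT naive. Those of 6 fibroblast markers were 0.165 to 0.403 CPM in WT TCM and 13.3 to 14.4 CPM in WT naive, and those of 9 macrophage markers 28600 to 29000 CPM in WT TCM and 17700 to 17900 CPM in WT naive. Singly, 6 of the 9 macrophage markers were called higher and 3 lower in WT TCM. Over all tested genes 21.6% were higher and 20.6% lower. The part of these lists in these results was not tested.

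For the lists of the pathway, the shares over all tested genes were 21.6% higher and 20.6% lower in WT TCM. Of the 10 other cycle genes 4 were higher in WT TCM and 1 was lower. Fh1 (log2 fold change 0.36 ± 0.05, SE) and Cs (0.20 ± 0.03, SE) were higher, and Mdh2, mitochondrial malate dehydrogenase, was lower (-0.26 ± 0.03, SE). Of 13 genes of pyruvate entry 2 were higher and 2 lower, and Pdk1, the kinase that switches pyruvate dehydrogenase off, averaged 85.7 ± 2.01 CPM in WT TCM and 37.7 ± 1.22 CPM in WT naive (log2 fold change 1.19 ± 0.04, SE). Of 9 glutamine and glutamate genes 4 were higher and none lower, including Glul (log2 fold change 0.18 ± 0.03, SE) and Phgdh (0.90 ± 0.15, SE). Of 6 genes of other succinate routes 4 were higher and 1 lower, with Acod1 at 56.8 ± 0.997 CPM in WT TCM and 26.9 ± 2.10 CPM in WT naive, and Slc13a3 at 22.7 ± 0.392 CPM in WT TCM and 39.4 ± 1.0 CPM in WT naive. The counts were 1 higher and 0 lower of 4 assembly factors (Sdhaf2), 0 and 1 of 6 cytosolic partners, 1 and 0 of 6 genes of 2-hydroxyglutarate and lipoate supply, 3 and 2 of 7 carriers and 3 and 2 of 12 mitochondrially encoded subunits. Of 31 dioxygenases 9 were higher and 7 lower, including Kdm6b (11.1 ± 2.15 CPM in WT TCM and 4.82 ± 0.203 CPM in WT naive) and the oxygen sensor Egln1 (log2 fold change 0.36 ± 0.05, SE).

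**Figure D3:**
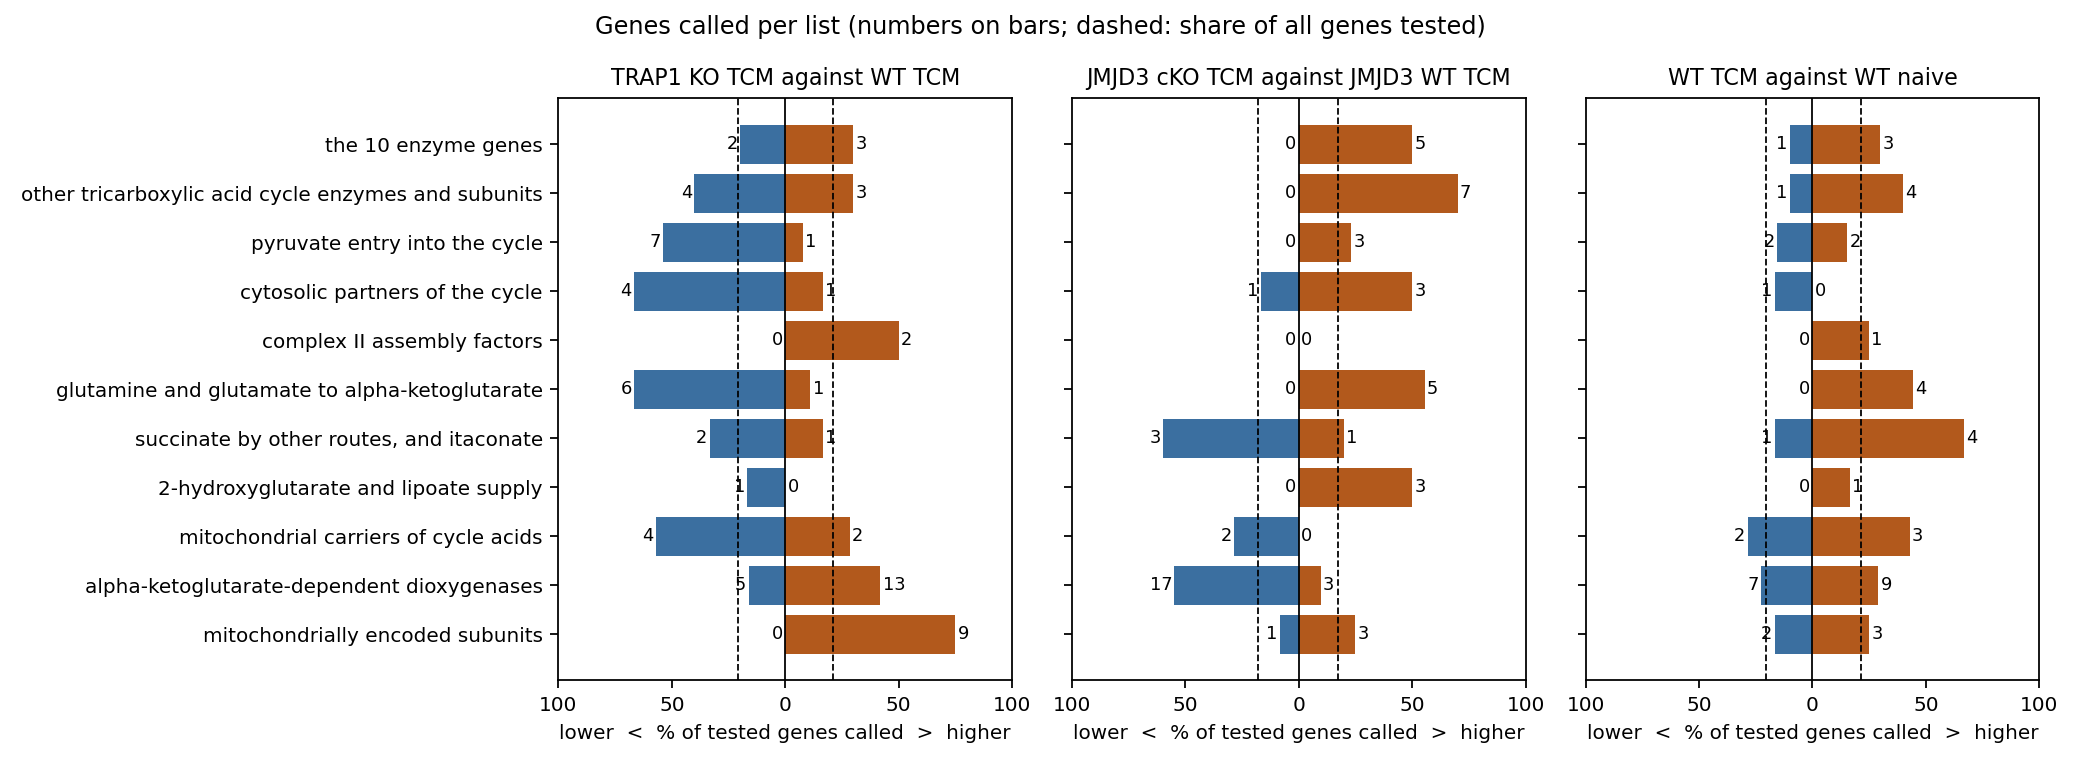
Percent of the tested genes of each list that were called higher (right) or lower (left) at an adjusted p under 0.05 in the 3 comparisons, with the number of genes at each bar and dashed lines at the percent of all tested genes. Of the 31 tested dioxygenases 13 were higher and 5 lower in TRAP1 KO TCM against WT TCM, and 3 higher and 17 lower in JMJD3 cKO TCM against JMJD3 WT TCM.

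The difference between the genotype effects was tested in 1 fit of all 16 libraries as the TRAP1 effect minus the JMJD3 effect. The isocitrate dehydrogenases and Suclg2 differed, being lower or little different in TRAP1 KO TCM and higher in JMJD3 cKO TCM, each against its own wild type. The difference on the log2 scale was -0.51 ± 0.07 for Idh2, -0.42 ± 0.11 for Suclg2, -0.36 ± 0.08 for Idh3a and -0.35 ± 0.05 for Idh1 (SE; edgeR adjusted p = 1.4e-08, 0.00129, 0.000148 and 6.1e-10). For Glud1 it was 0.19 ± 0.04 (SE; edgeR adjusted p = 5.16e-06), a larger gain in TRAP1 KO TCM. Over all 14545 tested genes 37.9% were called, 18.4% higher and 19.5% lower, and of the 10 genes 1 was higher and 4 were lower. The differences for Ogdh and the subunits of succinate dehydrogenase did not pass, with 95% intervals of -0.06 to 0.11 for Ogdh, -0.16 to -0.01 for Sdha, 0 to 0.18 for Sdhb, -0.14 to 0.04 for Sdhc and -0.09 to 0.11 for Sdhd. Of 19 alternative settings, Sdha gained a call in 4, and Sdhb and Sdhc in 1 each. With library totals and no TMM factor, 35.8% of the called genes were higher, against 48.6% with TMM, and all 5 called genes kept their call. Partner genes also differed, with Idh3b at -0.45 ± 0.05 and Suclg1 at -0.33 ± 0.07 (SE, log2). The lists around them differed as follows. Of 10 other cycle genes 0 were higher and 5 lower, of 9 glutamine and glutamate genes 1 was higher and 6 were lower, and of 31 dioxygenases 16 were higher and 2 lower in the TRAP1 effect than in the JMJD3 effect. Of 12 mitochondrially encoded subunits 10 were higher and 0 lower, and of 13 genes of pyruvate entry 0 were higher and 8 lower. Cytosolic partners stood at 0 higher and 4 lower of 6, as did 2-hydroxyglutarate and lipoate supply. Other succinate routes stood at 1 higher and 3 lower of 6, carriers at 3 and 2 of 7, and assembly factors at 1 and 0 of 4. With library totals and no TMM factor, 0 of the other cycle genes were higher and 8 lower, the glutamine and glutamate genes stayed at 1 higher and 6 lower, and 13 dioxygenases were higher and 3 lower. Mitochondrially encoded subunits were then at 6 higher and 0 lower, and genes of pyruvate entry at 0 higher and 10 lower.

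Across the 5 groups, both JMJD3 groups had the lowest mean levels for every gene but Sdhb and Sdhd. The order of the groups above them differed among genes. Idh3a had 42.2 CPM in WT naive, 41.8 CPM in TRAP1 KO TCM and 40.1 CPM in WT TCM, neighbours that overlapped, then 27.6 CPM in JMJD3 cKO TCM and 20.6 CPM in JMJD3 WT TCM, which overlapped with no other. Suclg2 had 25.7 CPM in WT naive and 25.4 CPM in TRAP1 KO TCM, which overlapped, then 23.9 CPM in WT TCM, 15.7 CPM in JMJD3 cKO TCM and 11.1 CPM in JMJD3 WT TCM. Idh2 had 71.0 CPM in WT TCM, 64.7 CPM in TRAP1 KO TCM, 57.5 CPM in WT naive, 40.4 CPM in JMJD3 cKO TCM and 31.2 CPM in JMJD3 WT TCM, with no overlap between neighbours. Idh1 had 132 CPM in WT TCM, 122.6 CPM in WT naive, 120.0 CPM in TRAP1 KO TCM, 96.5 CPM in JMJD3 cKO TCM and 83.2 CPM in JMJD3 WT TCM, and only WT naive and TRAP1 KO TCM overlapped. Glud1 ran from 340.3 CPM in TRAP1 KO TCM through 276.9 CPM in WT TCM, 267.1 CPM in WT naive and 246.8 CPM in JMJD3 cKO TCM to 229.0 CPM in JMJD3 WT TCM with no overlap between neighbours. Ogdh had 155.0 CPM in TRAP1 KO TCM, 150.9 CPM in WT TCM and 147.4 CPM in WT naive, where WT TCM overlapped with both others but TRAP1 KO TCM and WT naive did not overlap, then 135.7 CPM in JMJD3 cKO TCM and 134.4 CPM in JMJD3 WT TCM, which overlapped. Sdha overlapped between all neighbours, from 226.0 CPM in WT TCM to 208.6 CPM in JMJD3 WT TCM. Sdhb ran the other way, with 134.0 CPM in JMJD3 WT TCM, 131.3 CPM in JMJD3 cKO TCM and 130.7 CPM in WT naive, which overlapped, above 125.5 CPM in TRAP1 KO TCM and 120.3 CPM in WT TCM. Sdhc had 126.2 CPM in WT naive, then 121.3 CPM in TRAP1 KO TCM and 120.4 CPM in WT TCM, which overlapped, then 110.3 CPM in JMJD3 cKO TCM and 105.8 CPM in JMJD3 WT TCM. Sdhd had 116.8 CPM in TRAP1 KO TCM, 110.8 CPM in WT TCM, 105.7 CPM in JMJD3 cKO TCM, 100.8 CPM in JMJD3 WT TCM and lastly 84.9 CPM in WT naive, and only the JMJD3 groups overlapped.

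The wild types themselves differed under the same medium. JMJD3 WT TCM was lower than WT TCM in 9 of the 10 genes and higher in 1, Sdhb, where 61.3% of 14545 genes were called, 30.0% higher and 31.3% lower. The log2 fold changes were -1.19 ± 0.06 for Idh2, -1.11 ± 0.08 for Suclg2, -0.96 ± 0.06 for Idh3a and -0.67 ± 0.04 for Idh1 (SE; edgeR adjusted p from 7.95e-33 to 1.39e-21). Sdhb was at 0.16 ± 0.03 (SE; edgeR adjusted p = 3.69e-05) and at -0.01 with library totals and no TMM factor, a scaling that moved the median of all genes by -0.17 and left 31.7% of the called genes higher, against 48.9% with TMM. Mitochondrially encoded genes took 0.769% of counts in JMJD3 WT TCM and 1.26% in WT TCM, and all 12 tested mitochondrially encoded subunits were lower. Summed levels of 9 macrophage markers were 17600 to 18000 CPM in JMJD3 WT TCM and 28600 to 29000 CPM in WT TCM, and those of 7 neutrophil markers were 21.1 to 25.0 CPM in JMJD3 WT TCM and 4.08 to 5.46 CPM in WT TCM. Those of 4 dendritic cell markers were 7.41 to 9.76 CPM in JMJD3 WT TCM and 0.823 to 1.41 CPM in WT TCM. Singly, 3 of the 9 macrophage markers were called higher and 6 lower in JMJD3 WT TCM. The part of these lists in the result was not tested. The line and anything else that differs between the 2 sets of libraries cannot be told apart, and JMJD3 WT TCM is also the control of the JMJD3 comparison.

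Levels were compared between genes per kb of merged exons. These join the exons of all annotated transcripts of a gene, and their length need not be that of the transcripts present. The 4 subunits of succinate dehydrogenase, which form a complex with 1 copy of each, did not have equal levels on this scale. Their order depends on the lengths, with 4126 merged bases for Sdha and 1231 for Sdhd. In CPM without this division, Sdha was the highest of the 4 in TRAP1 KO TCM (223.7) and Sdhd the lowest (116.8). In TRAP1 KO TCM Sdhd stood at 94.9 ± 1.0 CPM per kb, Sdhb at 56.0 ± 0.867, Sdha at 54.2 ± 1.25 and Sdhc at 37.3 ± 0.485. In WT TCM Sdhd stood at 90.0 ± 1.20 CPM per kb, Sdhb at 53.7 ± 0.864, Sdha at 54.8 ± 0.823 and Sdhc at 37.0 ± 0.507. The summed level of the 4 was 242.5 ± 1.28 CPM per kb in TRAP1 KO TCM and 235.5 ± 1.04 in WT TCM, 231.6 ± 3.61 in JMJD3 cKO TCM and 224.8 ± 1.05 in JMJD3 WT TCM, and 219.4 ± 2.77 in WT naive. The libraries of TRAP1 KO TCM and WT TCM did not overlap in this sum, nor did those of JMJD3 cKO TCM and JMJD3 WT TCM, nor those of WT TCM and WT naive, and no test was run on it. The sum also depends on the merged exon lengths and does not show how each subunit moved. From WT naive to WT TCM, Sdhd went from 68.95 to 90.0 CPM per kb and Sdha from 53.2 to 54.8. Sdhb went from 58.4 to 53.7 and Sdhc from 38.8 to 37.0. In JMJD3 cKO TCM against JMJD3 WT TCM none of the 4 subunits passed the test. The ratio of Sdhd to Sdha was 1.64 ± 0.0373 in WT TCM and 1.30 ± 0.0713 in WT naive. Suclg2 stood at 0.554 ± 0.0223 of Suclg1 in TRAP1 KO TCM and 0.455 ± 0.0093 in WT TCM, and at 0.318 ± 0.0431 in JMJD3 cKO TCM and 0.247 ± 0.0185 in JMJD3 WT TCM. Its ratio to Sucla2 was 0.5075 ± 0.0210 in TRAP1 KO TCM and 0.484 ± 0.0121 in WT TCM, and these libraries overlapped. The ratio to Sucla2 was 0.313 ± 0.0307 in JMJD3 cKO TCM and 0.262 ± 0.0149 in JMJD3 WT TCM, without overlap. Idh3a stood at 0.279 ± 0.00222 of Idh3b in TRAP1 KO TCM and 0.222 ± 0.00517 in WT TCM. Glud1 stood at 2.85 ± 0.0634 times Ogdh in TRAP1 KO TCM and 2.38 ± 0.0328 times in WT TCM. These ratios are descriptions of levels per kb, their size depends on the merged exon lengths, and they were not tested.

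**Figure D4:**
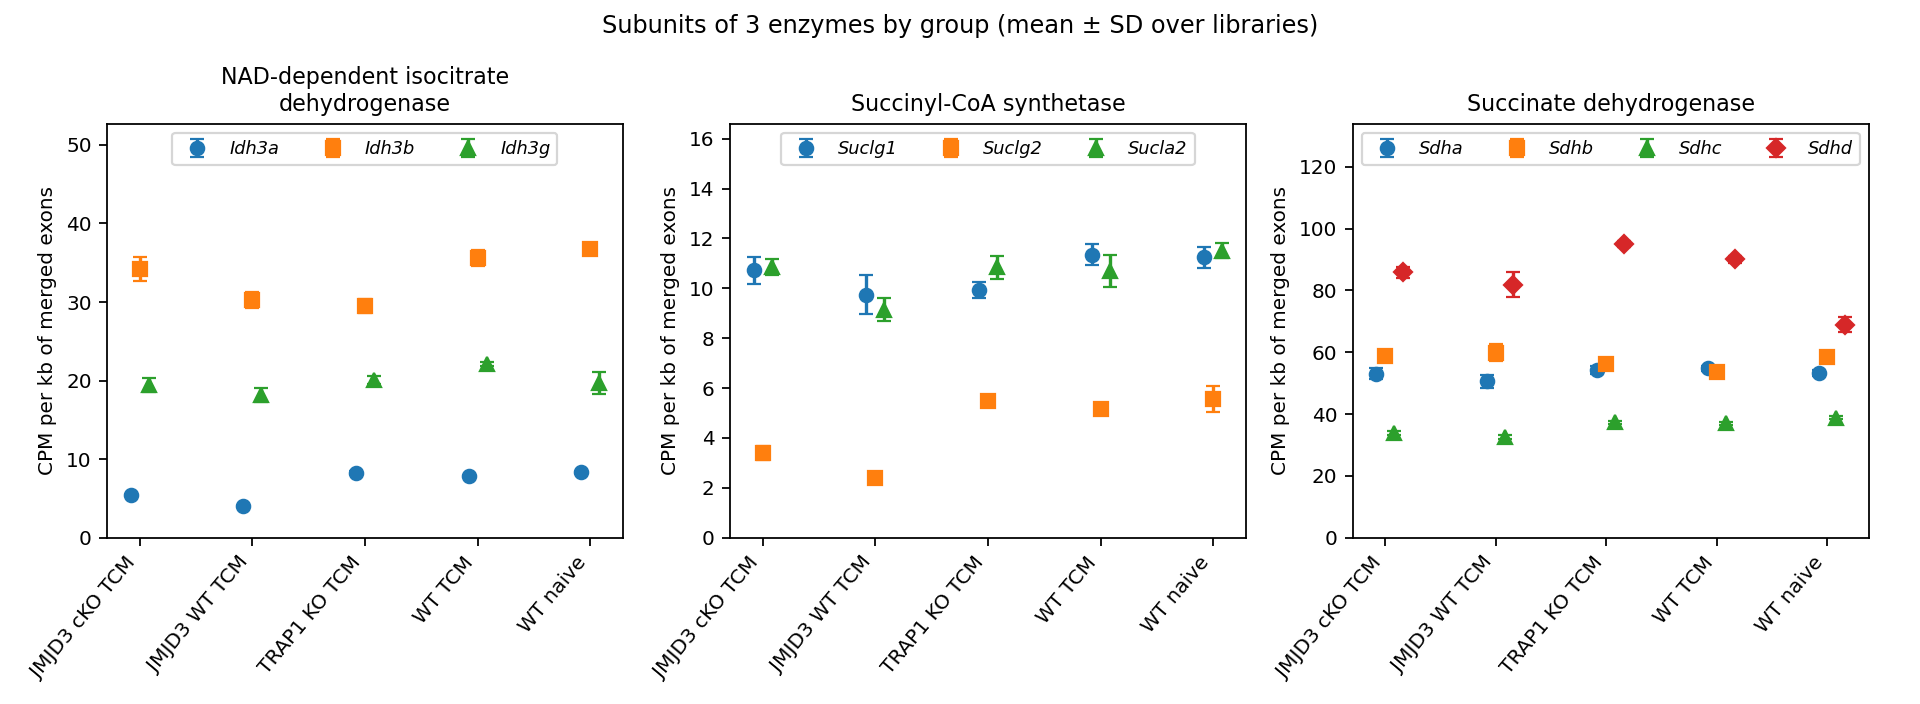
Levels of the subunits of NAD-dependent isocitrate dehydrogenase, succinyl-CoA ligase (synthetase) and succinate dehydrogenase in CPM per kb of merged exons, as mean ± SD over the libraries of each group. Of the subunits of succinate dehydrogenase, Sdhd is the highest in each group on this scale, which depends on merged exon length. It is at 94.9 CPM per kb in TRAP1 KO TCM, 90.0 in WT TCM and 68.9 in WT naive.

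Over the 16 libraries, Idh1, Idh2, Idh3a and Suclg2 had Pearson correlations of 0.94 to 0.98 with each other on the log2 CPM scale. Sdhc had 0.85 to 0.95 with these 4 genes, and Ogdh 0.84 to 0.88. Sdhb had negative correlations with all 9 others (-0.77 with Idh2 to -0.43 with Sdhc), and Sdhd had -0.16 with Sdhc. The libraries fall into 5 groups and 2 sets, so these values are descriptions that mainly hold the differences between groups. Genes whose pattern was most like that of Glud1 among 9224 candidates were P2ry6, Trp53 and Cdc42ep3 (r = 0.9956, 0.9913 and 0.9865). P2ry6, a receptor for extracellular nucleotides, averaged 389.5 ± 8.02 CPM in TRAP1 KO TCM, 264.2 ± 5.90 CPM in JMJD3 cKO TCM, 245.9 ± 1.45 CPM in JMJD3 WT TCM, 308.7 ± 1.57 CPM in WT TCM and 293.4 ± 4.81 CPM in WT naive. For Suclg2 they were Sptssa, St13 and Mybbp1a (r = 0.9901, 0.9895 and 0.9883), and for Sdhd Atrnl1, Nxpe5 and Emb (r = 0.9766, 0.9707 and 0.9664).

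The neighbours that share a promoter stretch with these genes were set beside them. Shld2, across from Glud1, was at a log2 fold change of 0.12 ± 0.13 in TRAP1 KO TCM against WT TCM, where Glud1 was at 0.31. Timm8b, across from Sdhd, was at 0.15 ± 0.08 in WT TCM against WT naive, where Sdhd was at 0.38. Pikfyve, across from Idh1, was at -0.05 ± 0.04 in JMJD3 cKO TCM against JMJD3 WT TCM, where Idh1 was at 0.22 (SE; edgeR adjusted p of the neighbours = 0.466, 0.135 and 0.315). In other comparisons the neighbour had the larger value. Shld2 was at 0.31 ± 0.13 in JMJD3 cKO TCM against JMJD3 WT TCM, where Glud1 was at 0.11, and Timm8b was at 0.17 ± 0.08 in TRAP1 KO TCM against WT TCM, where Sdhd was at 0.09 (SE; edgeR adjusted p of the neighbours = 0.0612 and 0.0611). None of these 3 neighbours passed the test in the 3 comparisons, and a difference between gene and neighbour was not tested.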

How the data were processed

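RNA was sequenced from 16 libraries in 5 groups, with totals of 15361604 to 22426820 counts. Ribosomal RNA removal and a stranded library kit were used, per the labels' protocols. Per the submitters' processing notes, the build was mm10 and the tools included RSEM, Bowtie2, StringTie and HISAT, without versions or roles. No source names the counting tool, its strand setting or the handling of shared reads. For each library the authors deposited whole-number counts per gene, used here as raw counts, and whether they were rounded estimates is not known. Overlapping genes (Gm45203 in Idh2, Gm16125 in Sdha) held at most 0.519% of a member's counts. Gene names, positions and exon lengths came from GENCODE M21 (GRCm38, mm10), which matched 54495 of 54532 identifiers; the 37 others took at most 0.0036% of a library.

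Counts were tested two-sided with edgeR (4.0.16, R 4.3.3): TMM scaling, filterByExpr (minimum 10), robust quasi-likelihood fits and p-values adjusted by Benjamini-Hochberg over all tested genes, called under 0.05. The TRAP1 and medium comparisons came from 1 fit of 10 libraries (7 residual degrees of freedom), the JMJD3 comparison from its 6 libraries (4), and the difference of effects and the comparison of wild types from all 16 (11). Intervals are 95%. Alternatives were DESeq2 (1.42.0), other scalings and filters, other sets of libraries, a block for the replicate number and leaving out each replicate. The script was tested on simulated counts that had the same set spread for every gene. That run checked the script and not the calls in these libraries. Patterns used log2 CPM (prior count 2) of genes with at least 5 CPM.

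The members, lists and markers were chosen with earlier results of these data known. Named list genes were up to 3 called genes with the smallest adjusted p per list and comparison. The partner subunits Idh3g, Suclg1 and Sucla2 were named for their role, and the neighbours for their position.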

Additional observations from a re-analysis of the deposited data

Results flagged for a closer look

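In TRAP1 KO TCM, a group of 4 libraries, a single library stood apart for 3 of the 10 genes. Idh2 was at 59.3 CPM in replicate 1 and at 66.0 to 67.0 CPM in the others. Ogdh was at 158.4 CPM in replicate 4 and at 153.6 to 154.1 CPM in the others. Sdhc was at 118.9 CPM in replicate 3 and at 122.0 to 122.2 CPM in the others. The 3 values came from different replicates, and chance picks out about 1 in 20 groups in this way.

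The effects of the knockouts differed from each other for 5 genes. The TRAP1 effect minus the JMJD3 effect was -0.353 for Idh1, -0.508 for Idh2, -0.363 for Idh3a, -0.419 for Suclg2 and 0.189 for Glud1 on the log2 scale, by edgeR's quasi-likelihood test of the difference. The lines of the 2 knockouts, and their wild types, also differed.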

How the results depend on the processing

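Over all comparisons, 283 counts stayed within 1.5 times their value and 13 moved beyond it, and of the fold changes of the 10 genes 688 kept direction and call, 19 gained a call, 16 lost one and 17 changed sign. All 17 were of genes that did not pass, apart from Sdhb in JMJD3 WT TCM against WT TCM. The cause of these changes was not tested.

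With library totals and no TMM factor, JMJD3 cKO TCM against JMJD3 WT TCM gave 3932 genes higher and 1571 lower and 9 members higher, with Sdhb at 0.057. The same scaling gave 2 members lower in WT TCM against WT naive. In the difference of effects Ogdh was at -0.043 and Sdhd at -0.057, and in JMJD3 WT TCM against WT TCM 0 members were higher and Sdhb was at -0.011. Sdha in TRAP1 KO TCM against WT TCM was at 0.003. With DESeq2, 1447 genes were higher in JMJD3 cKO TCM. With a minimum of 50 counts, 2 members were lower in WT TCM against WT naive, 2 were higher in the difference of effects, and Sdha was at 0.001 in the TRAP1 comparison. With all 16 libraries in 1 fit, 1 member was higher in TRAP1 KO TCM. The scaling of the lists around the members was varied too, a choice made after seeing the data, and in the difference of effects 13 dioxygenases were then higher and 3 lower with library totals, 0 other cycle genes higher and 8 lower (5 with TMM), and 6 mitochondrially encoded subunits higher (10 with TMM).

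Leaving out each replicate in turn gave 1 to 3 members higher and 1 to 2 lower in TRAP1 KO TCM against WT TCM, with 1 lower without TRAP1 KO TCM replicate 1 and 1 higher and 1 lower without WT TCM replicate 1. In WT TCM against WT naive it gave 1 to 2 lower, with 2 without WT naive replicate 1. Of genes that did not pass, Sdha came to -0.02 to 0.004 in the TRAP1 comparison, above 0 without TRAP1 KO TCM replicate 2 or 3 or WT TCM replicate 2. In the JMJD3 comparison Ogdh came to -0.007 (without JMJD3 WT TCM replicate 1) to 0.053, and Sdhb to -0.048 to 0.013 (without JMJD3 WT TCM replicate 2). In the difference of effects Sdhd came to -0.022 to 0.046 and Ogdh to -0.014 to 0.043.

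The replicate numbers were shared between groups. The correlations of deviations were -0.028 to 0.02 between libraries with the same number and -0.031 to 0.032 between libraries with different numbers. This gave no sign of pairing by number. Such deviations also hold counting noise, so whether a number marks a shared animal or batch is not known. With the replicate number as a block, 2791 genes were higher and 2786 lower in TRAP1 KO TCM against WT TCM, 2246 and 2333 in JMJD3 cKO TCM against JMJD3 WT TCM, and 3040 and 2887 in WT TCM against WT naive. The adjusted p of Sdhb in the TRAP1 comparison was 0.0722 with the block. Depth limits Suclg2 most, with 158 to 647 counts per library.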
